A study of Mus musculus with 18 samples.

Results

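The response of normal mouse blood progenitors to a cocktail of 4 reprogramming compounds was read from 5 arrays, out of 18 in the series: LSK compound replicates 2 and 3, and LSK control replicates 1, 2 and 3. LSK stands for the lineage-negative, Sca1-positive, Kit-positive cells of bone marrow, among which blood stem cells and early progenitors are found. The arrays were chosen by their titles, and LSK compound replicate 1 was left out because it did not resemble any other array. Only 2 treated arrays therefore remain.

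The LSK compound cells were sorted from mice called 4F and held for 24 h in vitro with VC6T, a mix of VPA, CHIR, 616452 and TCP. These mice carry OSKM transgenes, the 4 reprogramming factors Oct4, encoded by Pou5f1, with Sox2, Klf4 and Myc, which doxycycline (Dox) switches on, and the labels name no Dox for the compound group. LSK Dox cells, from the same kind of mice, were given Dox for 24 h to induce OSKM. AML compound cells were acute myeloid leukemia cells carrying the MLL-AF9 fusion oncogene, also from 4F mice, held for 24 h with the same mix. AML control and LSK control cells carry the same transgenes and were given neither treatment. The labels give no sex, age or count of animals, no compound doses and no time in culture for the controls. Replicates are labelled biological repeats, with no word on separate mice or cultures. The p-values therefore reflect only how far these samples scatter, and some of that scatter may be technical. The question was what the compounds do to normal progenitors, beside what they do to leukemia cells and beside what the transgenes do.

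Valproic acid (VPA) inhibits histone deacetylases, enzymes that remove acetyl groups from histones. CHIR is an inhibitor of GSK3, the kinase that marks beta-catenin for destruction, so that Wnt target genes are the textbook readout of its action. The compound 616452 inhibits the type I TGF-beta receptor, which signals through SMAD proteins to genes such as Smad7 and Skil. Tranylcypromine (TCP) inhibits the histone demethylase LSD1 (gene symbol Kdm1a), a partner of the repressor Gfi1 in blood cells. Resting progenitors hold some transcripts of several blood lineages at once, among them granule protease genes. Myeloid cells and their progenitors can also respond to danger signals through NF-kB, which drives cytokine genes, and through interferon and STAT proteins, which drive antiviral genes.

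All values are log2 expression after RMA, the array background correction, normalization and probe summary done by the authors. Each gene is represented by its brightest probe set. A gene was tested when it lay above the 40th percentile of its own array, a level of 2.32 to 2.41, on at least 2 of the 17 arrays used, which left 16912 genes. A gene is called when its limma p-value, adjusted by Benjamini-Hochberg over all genes tested, is under 0.05. Values below the level are treated as not distinguished from background. Where a gene lies below it in one group, the change with such values raised to the level is given as a lower bound.

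The 2 LSK compound arrays correlated with each other at r = 0.984 over all probe sets, the 3 LSK control arrays at 0.987 to 0.988, and compound with control arrays at 0.95 to 0.958. LSK compound replicate 1 correlated with the other 17 arrays at only 0.638 to 0.672. Abundant transcripts were dim on it: Gapdh, a glycolytic enzyme, read 5.49 there and 11.39 to 11.93 on the others. Among the 15 largest rises described below, 9 also lay above all 3 controls on that array and 0 reached halfway to the mean of the other compound arrays. All 15 of the largest falls lay below all 3 controls on it and at least halfway to that mean, on an array where abundant transcripts were also low. With all 18 arrays in the fit, 2937 genes were called in place of 5611, with 841 higher and 2096 lower.

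Sex-linked transcripts also set the compound arrays apart from the other LSK arrays used. Xist, the noncoding RNA of the inactive X chromosome, read 7.35 and 7.32 on the LSK compound arrays, against 9.28, 9.56 and 9.54 on the LSK control arrays and 9.49 to 9.77 on the LSK Dox arrays. The Y-linked genes Eif2s3y (5.47 and 5.2, against 1.80, 2.02 and 1.5), Kdm5d (4.30 and 4.54, against 1.99, 1.82 and 1.93) and Uty (5.03 and 5.13, against 1.78, 1.58 and 1.65) lay above the level on both LSK compound arrays and below it on all LSK control arrays. Female-type and male-type transcripts were thus both present in the compound samples, with Xist lower than in LSK control. A difference in the source of the cells and the treatment cannot be told apart for any gene below. On the autosomes 33.5% of 16232 genes were called, and on the X chromosome 27.8% of 543, with medians of -0.05 and -0.00 log2.

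**Figure D1:**
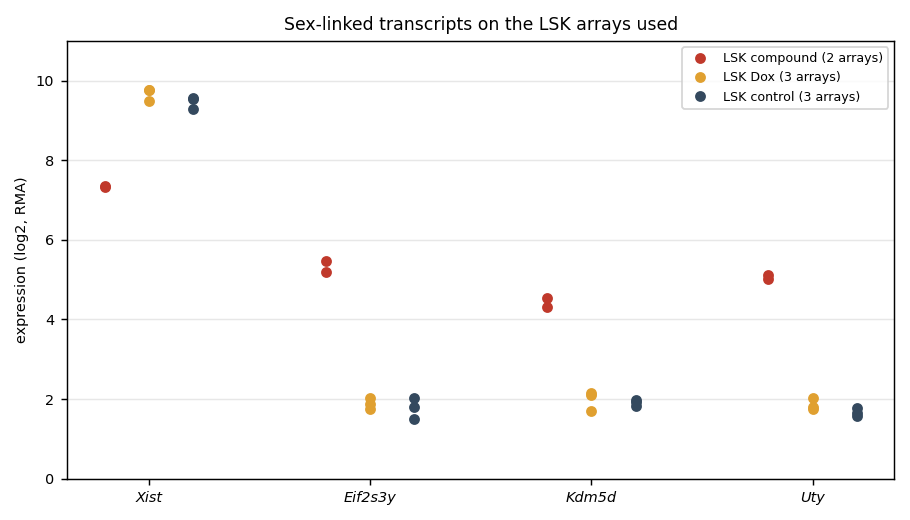
Expression (log2, RMA) of Xist and 3 Y-linked genes on the LSK arrays used, with 1 point per array for LSK compound (2 arrays), LSK Dox (3) and LSK control (3). Xist is lower on the compound arrays, at 7.35 and 7.32, and the Y-linked genes are above the level only there among these arrays.

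The labelled cell type was checked against its markers. Kit, the stem cell factor receptor, read 8.57 and 8.57 in LSK compound and 7.66, 7.76 and 7.72 in LSK control cells, and Cd34 read 9.34 and 9.42 against 10.08, 10.12 and 10.08. The T cell gene Cd3e (2.46 and 2.33, against 2.55, 2.80 and 2.35) and the B cell gene Pax5 (2.62 and 2.54, against 2.58, 2.66 and 2.59) were near the filter level in both groups. Itgam, a myeloid integrin used in lineage depletion, was expressed in both, at 6.65 and 6.64 in LSK compound and 6.42, 6.27 and 6.26 in LSK control cells. Ly6a, which encodes Sca1, was not analysed here because its probe sets were not tied to a single gene.

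A large share of the transcriptome differed between LSK compound and LSK control. Of 16912 genes, 5611 (33.2%) were called, 2351 (13.9%) higher and 3260 (19.3%) lower in LSK compound than in LSK control. At least 2-fold changes were called for 1445 genes (8.54%), of which 912 (5.39%) were higher and 533 (3.15%) lower. Falls outnumbered rises among all calls, but the large changes were mostly rises: 178 called genes rose at least 8-fold and 16 fell as much, and 36 rose at least 32-fold against 1 that fell as much. The arrays of the groups did not overlap for 8874 genes (52.5%), so a lack of overlap alone says little here. The median change over all genes was -0.05 log2, with a median SE of 0.14.

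Promoters of 3 genes that rose are shown first, chosen as examples of genes that NF-kB and interferon signalling are known to drive. Each sequence is the 250 bases before the RefSeq gene start on the gene's own strand (GRCm38.p6), with capitals marking matches on either strand to an NF-kB motif (GGGA, any 2 bases, then TTCC) or to the core of the interferon-stimulated element (TTTC, any 2 bases, then TTTC). Cxcl10 lies at chr5:92348890-92349139 on the minus strand, with 1 match of each kind. Cxcl2 lies at chr5:90903649-90903898 on the plus strand, with 2 overlapping NF-kB matches that share most of their bases. Ifit1 lies at chr19:34640639-34640888 on the plus strand, with 2 interferon-element matches.
Cxcl10: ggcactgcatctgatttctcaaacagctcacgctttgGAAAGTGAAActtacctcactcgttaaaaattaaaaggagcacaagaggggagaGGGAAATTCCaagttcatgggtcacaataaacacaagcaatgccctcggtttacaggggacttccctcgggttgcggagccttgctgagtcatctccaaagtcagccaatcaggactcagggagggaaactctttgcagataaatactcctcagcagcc
Cxcl2: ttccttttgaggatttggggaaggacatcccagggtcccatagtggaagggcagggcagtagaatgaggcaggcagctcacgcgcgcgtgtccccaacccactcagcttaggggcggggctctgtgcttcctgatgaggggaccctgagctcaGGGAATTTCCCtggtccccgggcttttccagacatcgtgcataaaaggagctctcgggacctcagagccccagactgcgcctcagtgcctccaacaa
Ifit1: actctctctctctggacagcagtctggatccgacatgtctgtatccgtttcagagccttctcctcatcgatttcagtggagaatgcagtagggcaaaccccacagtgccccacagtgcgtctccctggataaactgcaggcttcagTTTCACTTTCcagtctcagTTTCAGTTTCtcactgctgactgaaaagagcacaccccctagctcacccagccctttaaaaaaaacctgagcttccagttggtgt

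In the window of 250 bases before to 50 after the start, the NF-kB motif was present in 387 of 27025 gene promoters (1.43%), and in 4 of the 11 largest rises with a promoter in the table: Cxcl10, Cxcl2, Cxcl3 and Il6. It was in 5 of 13 matched members of the NF-kB list that were called higher (38.5%), and in 0 of the 15 largest falls. The interferon motif was present in 3.49% of all promoters and in 6 of 11 matched members of the interferon list that were called higher (54.5%): Bst2, Ifit1, Igtp, Isg15, Rsad2 and Stat2. Among the largest changes it was in 2 of the 11 matched rises (18.2%) and in 1 of the 15 falls (6.67%), Tgfbi. Both motifs were chosen after the expression values were seen, and a match is a run of letters, not a bound site. The 2 lists hold genes known for these pathways, so a raised share in them says nothing about the compounds.

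The 15 largest rises were led by inflammatory mediators. Cxcl10, a chemokine that draws activated T cells, read 11.20 and 11.27 on the LSK compound arrays, against 3.64, 3.28 and 3.35 on the LSK control arrays (log2 change 7.81, SE 0.15, limma adjusted p = 8.98e-16), a 224-fold rise. Il1b, a fever-inducing cytokine, read 11.06 and 10.95 against 3.69, 2.92 and 3.09 (log2 change 7.78, SE 0.19, limma adjusted p = 1.1e-14), a 219-fold rise. Both lay far above the level in LSK compound and not far above it in LSK control, with no overlap. Ptgs2, the inducible cyclooxygenase that makes prostaglandins, read 11.32 and 11.30 against 3.98, 3.54 and 3.91 (log2 change 7.50, SE 0.15, limma adjusted p = 8.98e-16). Il1a, the second interleukin 1, read 10.47 and 10.58 against 3.37, 2.58 and 3.38 (log2 change 7.41, SE 0.29, limma adjusted p = 2.44e-12). Il6, a cytokine of the acute-phase response, read 8.52 and 8.41 against 2.42, 1.83 and 1.97, with 2 of the LSK control arrays below the level, so its rise of 6.39 (SE 0.18) is at least 6.10. In all of these the 2 compound arrays lay within 0.2 log2 of each other and far above the controls.

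The neutrophil-attracting chemokines Cxcl3 (9.62 and 9.39, against 2.50, 1.92 and 2.06, a rise of 7.35, at least 7.11) and Cxcl2 (8.72 and 8.53, against 2.30, 2.99 and 2.15, 6.14, at least 6.07) also rose. Interferon-inducible genes in the same set were Ifi205, a p200-family DNA sensor (8.93 and 9.39, against 2.57, 2.57 and 2.10), Iigp1, an immunity-related GTPase (9.23 and 9.33, against 2.47, 2.59 and 2.78), and Gbp4, a guanylate-binding protein (8.25 and 8.50, against 2.12, 1.79 and 2.06). Their changes were 6.74 (at least 6.66), 6.67 and 6.38 (at least 6.03) log2. Tnfrsf11b, which encodes osteoprotegerin, a decoy receptor that restrains osteoclasts, read 9.32 and 9.46 against 2.67, 2.88 and 2.49, a change of 6.71. Cd80, the costimulatory ligand of T cells, read 10.71 and 10.81 against 4.66, 4.57 and 4.46, a change of 6.19.

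The other 3 of the 15 have different roles. Cd36, a scavenger receptor that takes up fatty acids, read 8.72 and 8.89 against 2.69, 2.83 and 2.69, a change of 6.07. Hamp, the iron hormone hepcidin, read 7.58 and 7.99 against 1.77, 1.74 and 1.74, with every LSK control array below the level, so its change of 6.03 is at least 5.44. Hamp also averaged below the level in LSK Dox (1.75), AML control (1.83) and AML compound cells (1.64). Among these groups it passed the filter only through the 2 LSK compound arrays, where it is high, so its p-value is no separate support. Ccn3, a matricellular protein, read 9.45 and 9.45 against 3.47, 3.45 and 3.56, a change of 5.96. For all 15 genes the limma adjusted p was at most 2.44e-12.

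**Figure D2:**
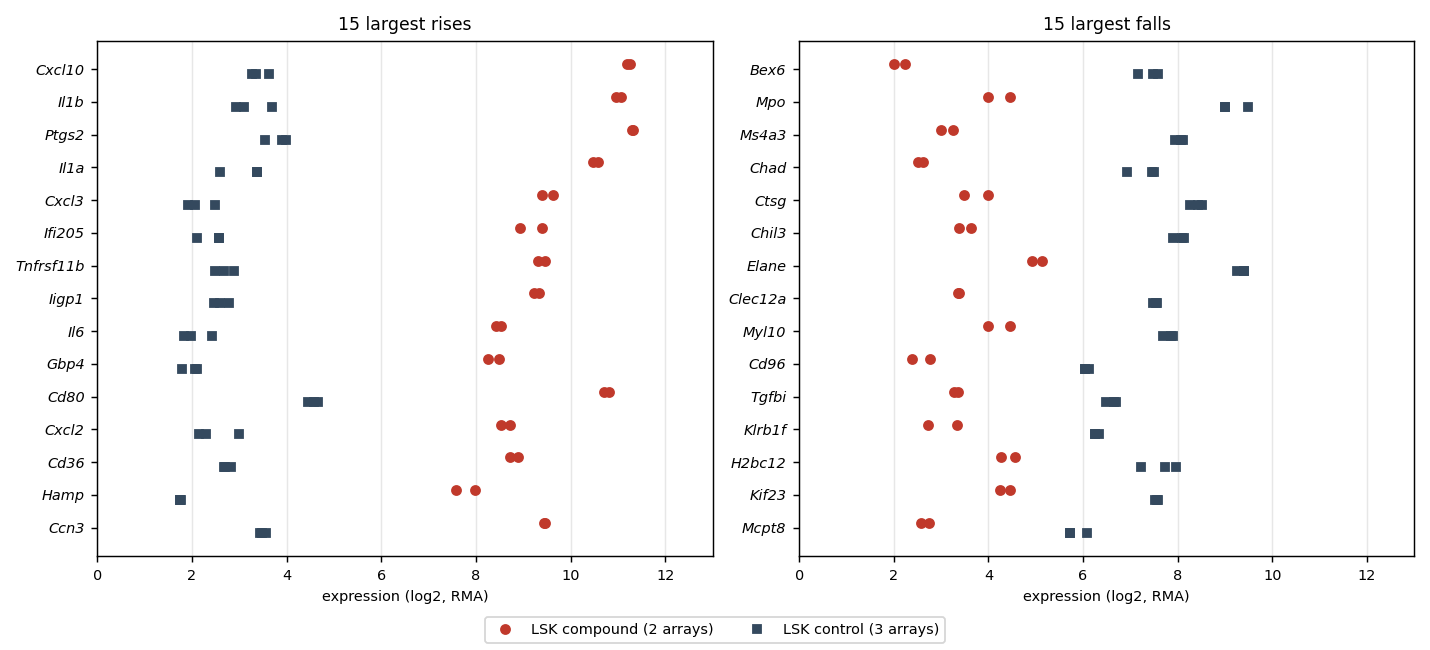
Expression (log2, RMA) of the 15 called genes with the largest rises (left) and the 15 with the largest falls (right), with 1 point per array: LSK compound as red circles (2 arrays) above LSK control as dark squares (3 arrays). No gene shows overlap. The LSK compound points lie close together for Cxcl10, at 11.20 and 11.27 against 3.28 to 3.64 in LSK control. They lie further apart for some genes, such as Klrb1f at 3.3 and 2.7.

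Across the NF-kB and inflammatory list, 18 of 19 tested genes were called higher and 0 lower (13.9% and 19.3% of all genes), with a median change of 3.55 log2. The chemokines Ccl4 (5.10), Ccl3 (4.06), Ccl2 (3.96) and Ccl5 (3.54) rose. Ccl3 read 11.92 and 11.90 in LSK compound and 7.97, 7.83 and 7.75 in LSK control, and Ccl5 11.64 and 11.67 against 8.07, 8.21 and 8.07, so both were well above the level without the compounds. Genes that NF-kB induces to restrain itself rose too: Tnfaip3, a ubiquitin editor (3.55), Nfkbia, which encodes I-kappa-B alpha (2.62), and Nfkbiz (2.85). Tnf itself read 9.26 and 9.0 against 6.68, 6.75 and 6.64 (log2 change 2.44, SE 0.12, limma adjusted p = 5.88e-11). The member not called was Tlr2, a receptor for bacterial lipoproteins, at 4.70 and 4.45 against 4.61, 4.43 and 4.62 (change 0.02, SE 0.14).

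In the interferon response list 16 of 17 genes were called higher and 0 lower, with a median of 3.25. Ifit1, which binds foreign RNA, read 9.19 and 9.41 against 4.02, 4.21 and 3.96 (log2 change 5.24, SE 0.14, limma adjusted p = 2.07e-14). Rsad2, the antiviral enzyme viperin, read 8.33 and 8.28 against 3.53, 3.05 and 3.18 (log2 change 5.05, SE 0.18, limma adjusted p = 6.27e-13). Transcription factors of the pathway rose with their targets: Stat2 by 3.43, Irf1 by 3.42, Irf7 by 2.83 and Irf9 by 1.22. Ifit3 was the exception, at 3.47 and 4.08 against 4.41, 4.06 and 3.40, with groups that overlap (change -0.18, SE 0.28). With LSK compound replicate 1 in the fit, 12 of 19 NF-kB genes and 11 of 17 interferon genes were called higher, and the counts were 18 and 16 when the 5 arrays were fitted alone.

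Genes of cytokine feedback moved in the same direction. Socs1 and Socs3, which shut off JAK kinases, read 7.64 and 7.88 against 4.20, 4.09 and 4.35 (change 3.55) and 7.69 and 7.64 against 4.71, 4.57 and 4.82 (change 2.97). In the list of cytokine receptors and growth factor signalling 9 of 16 genes were called higher and 3 lower. These are 56.2% and 18.8%, against 13.9% and 19.3% of all genes. The shared beta chain of the interleukin 3 and GM-CSF receptors, Csf2rb, rose by 1.73, and its paralog Csf2rb2 by 3.18, a near-identical copy that probes may not tell apart. The granulocyte receptor Csf3r (-1.24), the interleukin 6 receptor Il6ra (-1.53) and the progenitor receptor Flt3 (-1.81) were the 3 that fell. The fit with LSK compound replicate 1 had 4 of the 16 genes higher and 3 lower.

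The 15 largest falls included genes of early granulocytes, of granulocyte and monocyte progenitors and of basophils. Mpo, the peroxidase of primary neutrophil granules, read 3.99 and 4.46 in LSK compound against 8.99, 9.0 and 9.49 in LSK control (log2 change -4.93, SE 0.23, limma adjusted p = 1.91e-11), a 30.6-fold fall. Elane, neutrophil elastase, read 4.92 and 5.13 against 9.40, 9.26 and 9.40 (log2 change -4.33, SE 0.10, limma adjusted p = 1.11e-14). Ctsg, cathepsin G, read 3.49 and 4.00 against 8.27, 8.43 and 8.50 (log2 change -4.66, SE 0.15, limma adjusted p = 1.79e-13). These granule genes were still above the level in LSK compound, and the groups did not overlap. Ms4a3, a gene of granulocyte and monocyte progenitors, read 3.24 and 3.01 against 8.06, 8.12 and 7.95 (log2 change -4.92, SE 0.15, limma adjusted p = 8.12e-14). The chitinase-like gene Chil3 changed by -4.54, and Mcpt8, a basophil protease, by -3.18. In bulk samples, fewer cells of a type and less RNA per cell cannot be told apart.

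The largest fall of all was that of Bex6, at 2.0 and 2.23 against 7.48, 7.17 and 7.57, with both LSK compound arrays below the level, so the change of -5.29 is a fall of at least 5.03 log2. Others in the set were Chad, the matrix protein chondroadherin (-4.73), Clec12a, an inhibitory lectin receptor of myeloid cells (-4.16), Myl10, a myosin light chain (-3.59), Cd96, a receptor of the immunoglobulin family (-3.50), Tgfbi, a matrix protein induced by TGF-beta (-3.29), and Klrb1f, a lectin-like receptor (-3.24). H2bc12, a clustered histone H2B gene (-3.22), and Kif23, a kinesin of cytokinesis (-3.21), belong to dividing cells. For all 15 the limma adjusted p was at most 1.76e-07. None of the 30 genes has a second probe set of its own.

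Granule and neutrophil genes fell as a list, with 14 of 18 called lower (77.8%, against 19.3% of all genes) and a median of -2.14. Only 2 were higher (11.1%, against 13.9%). Secondary granule genes were among them: Ngp read 4.73 and 4.46 against 7.55, 7.77 and 7.88 (-3.14), Camp 2.09 and 2.45 against 4.82, 4.83 and 4.98 (-2.61) and Ltf 2.77 and 2.44 against 4.70, 5.14 and 5.79 (-2.61). S100a8, a calcium-binding alarmin, fell by 2.40 on the log2 scale. The 2 that rose were Mmp8, neutrophil collagenase (8.13 and 8.04, against 4.69, 4.37 and 4.64, change 3.52), and Lcn2, a siderophore-binding protein that NF-kB induces (0.56), and neither was called in the fit with LSK compound replicate 1, where 13 genes were lower. Cebpa, the transcription factor that starts granulocyte development, read 4.29 and 4.65 against 5.99, 6.04 and 6.03, a change of -1.55 (SE 0.13).

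Genes of cell division fell almost without exception. All 23 tested genes of the mitosis list were called lower (19.3% of all genes), with a median of -2.08 and no overlap between groups for any. Plk1, a mitotic kinase, read 5.77 and 5.70 against 8.21, 8.19 and 8.30 (log2 change -2.50, SE 0.10, limma adjusted p = 2.28e-12). Cdc20, which activates the anaphase-promoting complex, fell by 2.30, and Ccnb2, cyclin B2, by 2.34. In the DNA replication list 25 of 26 genes were called lower and 0 higher, with a median of -0.96: Rrm2, a ribonucleotide reductase subunit, changed by -1.64, Lig1, DNA ligase 1, by -1.58, and Mcm5, a subunit of the replicative helicase, by -1.34. Gins3 was not called, at -0.21 (SE 0.18). Falls in mitosis genes were thus larger than in replication genes on the log2 scale, in medians over different genes.

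Regulators of the cell cycle were divided. Of all genes 13.9% were called higher and 19.3% lower, beside 6.67% and 80% of cyclin and CDK genes. For CDK inhibitors the share was 28.6% each way. Of 15 cyclin, CDK, E2F and Rb family genes 12 were called lower and 1 higher. Ccna2 (-2.15), Cdk1 (-1.82) and Ccnd3 (-1.40) fell, and cyclin D2, Ccnd2, rose (change 1.04, SE 0.10). Among 7 CDK inhibitors, Cdkn1a, which encodes p21, rose at 9.61 and 9.56 against 7.96, 7.96 and 8.19 (log2 change 1.55, SE 0.13, limma adjusted p = 3.08e-08), and Cdkn1b, p27, rose by 0.54. Cdkn2c (-1.44) and Cdkn2d (-0.84), inhibitors of CDK4 and CDK6, fell. No cyclin, CDK or CDK inhibitor gene of these lists was called higher in the fit with LSK compound replicate 1, and 8 of 15 and 2 of 7 were lower. In the DNA damage and repair list 11 of 12 genes were called lower, among them Fancd2 (-1.90) and Chek2 (-1.74). Of the histone variant genes 6 of 8 were lower, for example H2ax at 8.21 and 8.44 against 10.28, 10.34 and 10.23.

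Ribosome biogenesis and Myc target genes fell by smaller amounts: 20 of 23 were called lower and 1 higher, with a median of -0.63. Myc itself read 8.52 and 8.52 against 9.19, 9.41 and 9.41 (log2 change -0.81, SE 0.15, limma adjusted p = 0.000438). Wdr12 and Bop1, which act in ribosome assembly, changed by -0.71 and -0.70. The gene that rose was Odc1, ornithine decarboxylase, the first enzyme of polyamine synthesis (1.01). With LSK compound replicate 1 in the fit this list had 10 calls lower and 0 higher, while mitosis had 22 and DNA replication 22 lower.

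**Figure D3:**
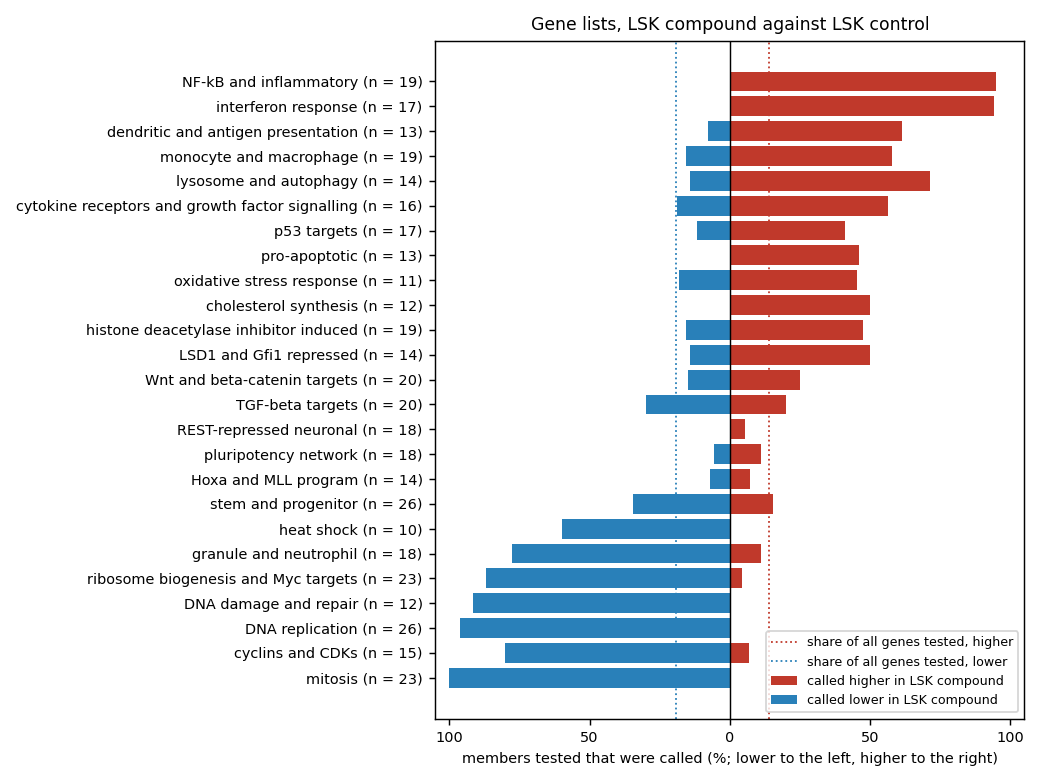
Share of tested members of 25 gene lists called higher (red, to the right) or lower (blue, to the left) in LSK compound against LSK control, with the share of all 16912 genes as dotted lines (13.9% higher, 19.3% lower). NF-kB and interferon lists stand at the top right and mitosis, DNA replication and granule lists at the lower left.

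Targets of the 4 compounds were read at the transcript level only, which says nothing about enzyme activity. Of 9 tested target genes 5 were called lower (55.6%, against 19.3% of all genes) and 0 higher. The LSD1 gene Kdm1a read 6.20 and 5.96 against 6.72, 6.67 and 6.82 (log2 change -0.66, SE 0.12, limma adjusted p = 0.000279), and its paralog Kdm1b changed by -0.39. The TGF-beta type I receptor Tgfbr1 read 4.12 and 3.64 against 4.62, 4.49 and 4.96 (log2 change -0.80, SE 0.18, limma adjusted p = 0.00201), and the related activin receptor Acvr1b changed by -0.53. Among class I deacetylases Hdac2 was called, at -0.31. Hdac1 (-0.11), Hdac3 (-0.18), Hdac8 (-0.06) and the GSK3 gene Gsk3b (0.03, SE 0.12) were not called. The count of 5 lower was 3 with LSK compound replicate 1 added, 3 without LSK compound replicate 2 or without LSK control replicate 3, and 2 without LSK compound replicate 3.

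Wnt and beta-catenin target genes, the textbook readout of GSK3 inhibition, gave a mixed count: 5 of 20 were called higher (13.9% of all genes) and 3 lower, with a median of 0.03. Axin2, the target used most widely as a reporter, read 3.75 and 3.57 in LSK compound and 3.44, 3.54 and 3.39 in LSK control (change 0.20, SE 0.15), and was not called. Lef1 was not called either (0.19, SE 0.12). The called rises were Apcdd1 (3.77 and 3.85, against 2.43, 3.03 and 2.38, change 1.20), Nkd1 (0.98), Tcf7l2 (0.65), Kremen1 (0.54) and Prickle1 (0.50), of which Apcdd1 and Nkd1 were near the level in LSK control. Ccnd1, Bambi and Sox4 fell, by 0.65, 0.63 and 0.40, and 1 of these calls was left with LSK compound replicate 1 added or LSK compound replicate 2 left out. The TCF/LEF letters CTTTGAT or CTTTGTT, on either strand, were in 9.28% of all promoter windows, in 0 of 3 matched called rises and in 0 of 1 matched called fall. Outside this list, they were in 2 of the 11 matched largest rises (18.2%) and in 3 of the 15 largest falls (20%).

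TGF-beta target genes were also divided, with 4 of 20 called higher (20%) and 6 lower (30%) and a median of -0.18. Of all genes, 13.9% were higher and 19.3% lower, so no direction is read from these counts. Those lower included direct SMAD targets: Tgfbi, the repressor Skil (3.70 and 3.57, against 4.56, 4.72 and 4.79, change -1.05), its relative Ski (-1.58) and Id1, an inhibitor of differentiation factors that BMP signals induce (-1.28). Smad7, the feedback inhibitor, was not called (-0.20, SE 0.18). The rises were Id2 (1.86), Bhlhe40 (1.09), the ubiquitin ligase Smurf1 (1.08) and Junb (0.79). Several of these genes also respond to other signals. The counts were 2 higher and 4 lower with LSK compound replicate 1 in the fit.

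Genes known to be induced by deacetylase inhibitors had 9 of 19 called higher (47.4%, against 13.9% of all genes) and 3 lower (15.8%, against 19.3%). Their median was 0.15. With LSK compound replicate 1 in the fit the counts were only 2 higher and 3 lower. Mt2, a zinc-binding metallothionein, led the list and read 10.05 and 10.14 against 6.52, 6.62 and 6.29 (log2 change 3.62, SE 0.11, limma adjusted p = 1.03e-13), and its relative Mt1 changed by 0.84. Tubb3, a neuronal beta tubulin, read 5.08 and 4.38 against 3.05, 2.52 and 3.05 (1.86). The stress genes Ier3 (2.84) and Gadd45b (2.39), which inflammation also induces, rose as well. Txnip, a thioredoxin inhibitor, ran the other way at 6.32 and 6.60 against 8.15, 8.38 and 8.31 (-1.82). Other deacetylases and sirtuins were among the genes that changed, with Hdac10 (-1.38), Hdac5 (-1.19) and Sirt1 (-0.69) lower and Sirt2 (0.84) higher.

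Genes repressed by LSD1 and Gfi1 had 7 of 14 called higher (50%, against 13.9% of all genes) and 2 lower (14.3%, against 19.3%). Their median was 0.29. With LSK compound replicate 1 in the fit the counts were 2 each way. The count of 2 lower was 1 without any of LSK compound replicates 2 and 3 and LSK control replicates 1 and 2. Cd14, the co-receptor for lipopolysaccharide, read 9.71 and 9.66 against 5.23, 4.53 and 4.88 (log2 change 4.81, SE 0.19, limma adjusted p = 3.21e-12). Cd86, a costimulatory ligand, read 7.12 and 7.54 against 3.33, 3.26 and 3.55 (log2 change 3.94, SE 0.21, limma adjusted p = 1.32e-10). Gfi1 itself, which represses its own gene, read 7.31 and 7.51 against 4.74, 4.96 and 4.87 (log2 change 2.55, SE 0.11, limma adjusted p = 5.36e-12). Csf1r (-0.46) and Cebpa were the 2 lower. Neuronal genes repressed by REST, a factor that recruits LSD1 and deacetylases, had 1 of 18 called higher (5.56%), Tubb3, and 0 lower, with a median of -0.03.

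**Figure D4:**
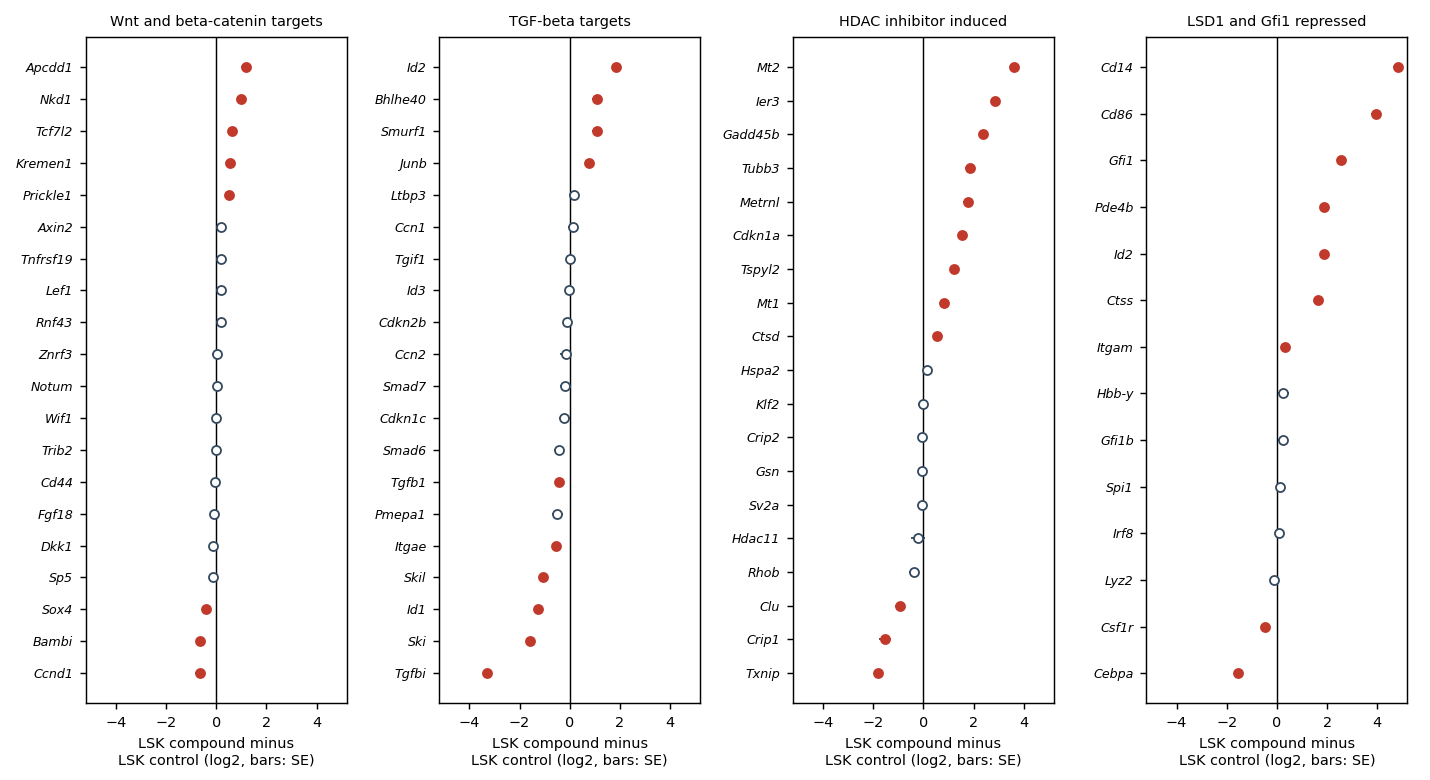
Change in LSK compound against LSK control (log2, bars are SE) for each tested gene of 4 lists tied to the compounds' targets, with filled points for called genes and open points for the others. Most SE bars are shorter than the points are wide. Axin2 and Lef1 sit near 0 in the Wnt list, Tgfbi is the lowest TGF-beta gene at -3.29, Mt2 leads the deacetylase inhibitor list at 3.62 and Cd14 the LSD1 list at 4.81.

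Markers of the LSK gate and of stem cells had calls in both directions. Of 8 LSK markers 4 were called higher and 3 lower (1 and 2 with LSK compound replicate 1 in the fit). Kit rose by 0.86, and Slamf1, the CD150 marker of long-term stem cells, read 3.72 and 4.21 against 1.97, 2.26 and 2.18, with every LSK control array below the level (change 1.83, at least 1.62). Flt3, which marks multipotent progenitors, read 5.71 and 5.42 against 7.34, 7.44 and 7.35, Cd48 changed by -0.79 and Cd34 by -0.71. In the wider stem and progenitor list 4 of 26 (15.4%) were called higher and 9 (34.6%) lower, against 13.9% and 19.3% of all genes. These were 2 and 2 with LSK compound replicate 1 in the fit, and the 9 lower became 5 without LSK compound replicate 2 or 3. Procr, the endothelial protein C receptor on stem cells, read 6.24 and 6.80 against 3.61, 3.91 and 3.86 (log2 change 2.72, SE 0.15, limma adjusted p = 2.87e-10). The transcription factors Fli1 (-0.48), Erg (-0.42) and Meis1 (-0.38) were modestly lower, and Runx1 (-0.06), Gata2 (0.01) and Hoxa9 (-0.10) were not called.

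Monocyte and macrophage genes were divided, with 57.9% called higher and 15.8% lower, against 13.9% and 19.3% of all genes. Of 19 tested, 11 were called higher and 3 lower, with a median of 0.57, and 4 and 3 with LSK compound replicate 1 in the fit. Over the list the mean level was 6.20 to 6.25 on the LSK compound arrays and 5.24 to 5.36 on the LSK control arrays, and 17 of 19 genes lay above the level in LSK compound against 19 of 19 in LSK control. Cd14, the macrophage receptor Adgre1 (8.86 and 8.53, against 4.44, 4.22 and 4.70, change 4.24), Ms4a6c (3.63) and the Fc receptor Fcgr3 (2.01) rose. Csf1r, the receptor that defines the lineage, read 5.40 and 5.29 against 5.80, 5.88 and 5.74, and Ccr2, the monocyte chemokine receptor, 4.39 and 4.09 against 6.09, 6.20 and 6.20, both called lower. Lyz2 (-0.12), Ly6c2 (-0.01) and Cx3cr1 (-0.54) were not called. The part of other cell types in these results was not tested.

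Antigen presentation genes rose together, with 61.5% of their list called higher and 7.69% lower, against 13.9% and 19.3% of all genes. Of 13 dendritic and antigen presentation genes 8 were called higher and 1 lower, with a median of 2.09, and the list's mean level was 5.85 to 6.08 in LSK compound and 4.26 to 4.34 in LSK control. The class II genes H2-Ab1 (10.09 and 10.16, against 7.90, 7.84 and 8.04, change 2.20), H2-Eb1 (2.09) and H2-Aa (1.72) rose, with their master regulator Ciita at 5.72 and 5.80 against 3.56, 3.42 and 3.38 (log2 change 2.31, SE 0.16, limma adjusted p = 4.44e-09). So did Cd80, Cd86, Ccr7 (2.73) and Cd40 (2.51). Lineage-defining dendritic genes did not: Zbtb46 read 2.66 and 2.62 against 2.75, 2.60 and 2.57, Itgax 2.03 and 2.62 against 2.46, 2.53 and 2.83 and Siglech 2.40 and 2.79 against 2.98, 2.73 and 3.06, all near the level.

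Counts for other lineages were small, and most of them moved with 1 array. Of all genes, 13.9% were called higher and 19.3% lower, against 20% and 0% of erythroid genes and 21.4% and 42.9% of megakaryocyte and platelet genes. Erythroid genes had 2 of 10 called, Car2 (1.26) and the transferrin receptor Tfrc (0.56), both higher. Megakaryocyte and platelet genes had 3 of 14 higher and 6 lower: the chemokine genes Ppbp (6.99 and 6.99, against 2.60, 2.94 and 2.86) and Pf4 (3.06) and the adhesion receptor Selp (3.17) rose, while the integrin genes Itgb3 (-1.52) and Itga2b (-0.63) and Gp9 (-1.36) fell. Among mast cell and basophil genes, histidine decarboxylase Hdc rose by 2.75 and carboxypeptidase Cpa3 by 1.63, against the fall in Mcpt8. The eosinophil list had 1 of 6 higher and 2 lower, with a mean level under 3.2 in both groups, and 4 lower without LSK control replicate 1. Adding LSK compound replicate 1 left 0 erythroid genes higher, 1 megakaryocyte gene higher and 4 lower, 1 mast cell or basophil gene higher and 2 lower, and 1 eosinophil gene each way.

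In the B cell list 3 of 7 genes were higher, Blnk (4.86 and 4.89, against 2.62, 2.54 and 2.76), Igll1 (1.53) and Ebf1 (1.02, at least 0.86), and 2 lower, which became 1 without any single LSK array compared, with Pax5 and Cd79a (-0.09) not called. The T and NK list had 2 of 12 higher (16.7%) and 1 lower (8.33%), against 13.9% and 19.3% of all genes. Those higher were Il7r (5.95 and 5.98, against 2.33, 2.45 and 2.78) and Gzmb (0.92). Nkg7 was lower (-1.84), with Cd3e and Cd3d at or near the level in both groups. Stromal and endothelial genes had 4 of 14 higher, Pecam1 (8.95 and 8.85, against 7.10, 7.18 and 6.99), Lum (1.35, at least 0.86), Emcn (0.90) and Kdr (0.83), with mean levels of 3.55 to 3.60 in LSK compound and 3.23 to 3.27 in LSK control. Their defining genes Col1a1 (2.71 and 2.56, against 2.57, 2.71 and 2.63) and Cdh5 (2.60 and 2.55, against 2.38, 2.24 and 2.59) were near the level in both groups. Adding LSK compound replicate 1 gave 3 B cell genes higher and 0 lower, 0 T and NK genes higher and 1 lower, and 2 stromal and endothelial genes higher.

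Of the reprogramming factors, whose transgenes these cells carry but which Dox did not induce here, Klf4 rose, Myc fell and Pou5f1 and Sox2 were not called. Pou5f1 read 3.17 and 2.79 in LSK compound and 3.07, 3.06 and 2.81 in LSK control (change 0.00, SE 0.18), and Sox2 2.68 and 2.49 against 2.7, 2.44 and 2.38 (change 0.08, SE 0.23). The groups overlap for both genes. Klf4 was at 4.92 and 4.89 against 3.95, 3.71 and 3.82 (log2 change 1.07, SE 0.12, limma adjusted p = 2.16e-06), and the values of Myc are given above. The arrays do not tell transgene from endogenous transcripts here.

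Of 18 pluripotency genes 2 (11.1%) were called higher and 1 (5.56%) lower, against 13.9% and 19.3% of all genes. No direction is read from these counts. Tdgf1, which encodes the Nodal co-receptor Cripto, read 5.26 and 5.48 against 2.06, 1.89 and 2.11, with every LSK control array below the level (log2 change 3.35, SE 0.12, limma adjusted p = 6.16e-13, at least 3.02). Dppa3 (0.36) and Gdf3 (-0.58) changed little and lay near the level. Nanog read 2.50 and 2.61 against 2.72, 2.57 and 2.50 and was not called. Epithelial genes had 0 of 13 called either way, with 3 at an unadjusted limma p under 0.05 (Tjp3, Cldn4 and Cldn7, all lower). Mesenchymal genes had 0 of 9 higher and 2 lower (22.2%), Vim (-0.39) and S100a4 (-2.71). Cdh1, E-cadherin, read 3.03 and 2.78 against 2.91, 2.87 and 2.98. In the Hoxa and MLL list 1 of 14 was higher (7.14%), Eya1 (0.58), and 1 lower (7.14%), Meis1. Adding LSK compound replicate 1 gave 1 pluripotency gene higher and 0 lower, 1 mesenchymal gene lower and 0 Hoxa and MLL genes. The pluripotency count of 2 higher was 0 without LSK compound replicate 2 and 1 without LSK compound replicate 3 or LSK control replicate 2 or 3, and its 1 lower was lost without each of the last 3. A gene also leaves such a count when it no longer passes the filter of at least 2 arrays above the level. Tdgf1, below the level on every LSK control array, may be such a case, so the lower counts do not show that its rise was weak. If it passed the filter only through the LSK compound arrays, where it is high, its p-value is no separate support. Leaving out LSK compound replicate 2 gave 3 Hoxa and MLL genes higher and 0 lower, and leaving out LSK control replicate 3 gave 2 higher.

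Cell death genes were called higher on both sides of the balance, mostly not so with LSK compound replicate 1 in the fit. The shares higher and lower were 46.2% and 0% of pro-apoptotic, 33.3% and 22.2% of anti-apoptotic and 41.2% and 11.8% of p53 target genes. Those of all genes were 13.9% and 19.3%. Of 13 pro-apoptotic genes 6 were called higher and 0 lower: Tnfsf10, the death ligand TRAIL, read 8.55 and 8.40 against 4.98, 4.37 and 4.83 (log2 change 3.75, SE 0.22, limma adjusted p = 3.5e-10), Pmaip1 (NOXA) changed by 1.51, Bcl2l11 (BIM) by 1.25 and Apaf1 by 0.90. Of 9 anti-apoptotic genes 3 were higher, the NF-kB targets Birc3 (1.78), Cflar (1.46) and Birc2 (1.38), and 2 lower, Birc5 (-1.77), which is also a mitotic gene, and Bcl2 (-0.61). The p53 target list had 7 of 17 higher and 2 lower, led by the death receptor Fas at 7.50 and 7.46 against 4.01, 3.68 and 3.81 (log2 change 3.64, SE 0.16, limma adjusted p = 1.11e-11). Mdm2 rose by 0.74, and Ccng1 (0.06), Phlda3 (0.14) and Bbc3 (0.10) were not called. The fit with LSK compound replicate 1 left 1 pro-apoptotic gene higher, 0 anti-apoptotic genes higher and 2 lower, and 1 p53 target each way. The 2 p53 targets lower became 0 without LSK compound replicate 3 and 1 without LSK compound replicate 2 or LSK control replicate 1 or 2.

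Stress lists were split, beside 13.9% of all genes called higher and 19.3% lower. The lower shares of the oxidative stress list (18.2%) and the immediate early list (17.6%) were near that of all genes. In the oxidative stress list 5 of 11 were higher and 2 lower: the cystine transporter Slc7a11 read 8.03 and 7.85 against 4.41, 3.97 and 4.22 (log2 change 3.74, SE 0.15, limma adjusted p = 5.03e-12) and heme oxygenase Hmox1 8.45 and 8.38 against 5.76, 5.46 and 5.78 (2.75), while both subunits of the enzyme that starts glutathione synthesis, Gclm (-1.58) and Gclc (-0.81), fell. The unfolded protein and integrated stress list had 7 of 19 higher and 7 lower, with Atf3 at 2.95 and Vldlr at -2.12 as its ends. Heat shock genes had 0 of 10 higher and 6 lower, all by less than 1 log2. Immediate early genes had 7 of 17 higher and 3 lower, with Jun (2.63), Fosl2 (2.63) and Nr4a1 (2.69) up and Egr1 (-0.51) down, and Fos not called (0.05). Adding LSK compound replicate 1 gave, as higher and lower, 1 and 2 oxidative stress genes, 2 and 4 unfolded protein genes, 0 and 2 heat shock genes and 5 and 1 immediate early genes. Leaving out LSK compound replicate 2 gave 3 heat shock and 1 immediate early gene lower, and leaving out LSK compound replicate 3 gave 4 unfolded protein genes higher.

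Metabolic genes changed in part, beside 13.9% of all genes called higher and 19.3% lower. The shares higher and lower were 71.4% and 14.3% for lysosome genes and 50% and 0% for cholesterol genes. They were 40% and 26.7% for glycolysis genes and 30.8% and 38.5% for lipid genes. Lysosome and autophagy genes had 10 of 14 higher and 2 lower, with cathepsin L, Ctsl, at 8.13 and 8.20 against 5.09, 5.12 and 5.09 (log2 change 3.06, SE 0.12, limma adjusted p = 3e-12) and Lamp2 at 1.30. Cholesterol synthesis genes had 6 of 12 higher and 0 lower, all under 1 log2 (Mvd 0.78). In the glycolysis and hypoxia list 6 of 15 were higher and 4 lower: hexokinase 2, Hk2, read 7.56 and 7.63 against 5.23, 5.35 and 5.22 (2.33), Vegfa changed by 1.54 and the glucose transporter Slc2a1 by 1.08, while Ndrg1 changed by -1.76. Lipid genes had 4 of 13 higher and 5 lower, with Cd36 at one end and lipoprotein lipase Lpl (3.17 and 3.04, against 5.70, 5.04 and 5.71, -2.38) at the other. Adding LSK compound replicate 1 gave, as higher and lower, 2 and 1 lysosome genes, 1 and 0 cholesterol genes, 1 and 4 glycolysis genes and 2 and 4 lipid genes. Cholesterol genes had 3 higher and 1 lower without LSK control replicate 2, glycolysis genes 2 lower without LSK compound replicate 2, and lysosome genes 1 lower without any of LSK compound replicates 2 and 3 and LSK control replicates 2 and 3.

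The same mix was given to AML cells, and the difference between the responses was tested directly as (LSK compound minus LSK control) minus (AML compound minus AML control), contrasts that share no array. It was called for 2809 genes (16.6%), 1394 (8.24%) with a higher and 1415 (8.37%) with a lower response in LSK. In AML cells alone 5206 genes (30.8%) were called, 2085 (12.3%) higher and 3121 (18.5%) lower. At least 2-fold changes were called for the 1445 genes given above in LSK cells and for 737 (4.36%) in AML cells, where each group had 3 arrays. The number of treated arrays differs between the cell types, so these counts are not compared further. On the AML arrays Xist read 2.3 to 3.0 and Eif2s3y 1.9 to 2.6, all near or below the level. In AML cells too, 3 of the 4 sex-linked genes were called higher with the compounds and 0 lower. Eif2s3y read 2.64, 2.45 and 2.34 in AML compound against 1.95, 1.98 and 2.13 in AML control. Y-linked values well above the level, together with Xist, were seen only on the LSK compound arrays used. The cause was not tested. The source of the cells and the treatment cannot be told apart on the LSK side of this difference either.

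Inflammatory genes differed between the cell types. In the NF-kB list 16 of 19 genes had a higher response in LSK and 1 a lower one, with a median difference of 2.41. In the interferon list 14 of 17 had a higher response in LSK and 0 a lower one, with a median difference of 2.50. Il1b reached 11.06 and 10.95 in LSK compound but 2.96 ± 0.06 in AML compound against 2.19 ± 0.16 in AML control cells (SD, n = 3 each), a difference in response of 7.01 (SE 0.25, limma adjusted p = 4.86e-12). The others with the largest LSK excess were Tnfrsf11b (6.86), the T cell chemokine Cxcl9 (6.30), Ifi205 (6.25), Hamp (6.22), Cxcl10 (6.16), Iigp1 (6.08) and Il1a (6.03). Hamp was below the level on all LSK control arrays and averaged 1.64 ± 0.14 in AML compound and 1.83 ± 0.10 in AML control cells, and its difference is 5.43 with such values raised to the level, so its place among the 8 is not settled. The difference for Cxcl9, below the level on 2 LSK control arrays, is 6.21 on the same terms. In AML cells Tnfrsf11b (-0.15), Hamp (-0.19) and Ifi205 (0.49) were not called, and Cxcl9 was called lower (-0.42).

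Some inflammatory genes responded in both cell types. Cxcl3 changed by 7.35 in LSK and 7.79 in AML cells, and the difference of -0.45 (SE 0.29, limma adjusted p = 0.365) was not called. Usp18, which removes ISG15 from proteins, changed by 3.73 in LSK and 4.19 in AML cells (difference -0.46, SE 0.22, not called). Ccl3 was the NF-kB gene with the lower LSK response, at 4.06 against 5.56. Ccl5 moved in opposite directions, rising by 3.54 in LSK and falling in AML cells (change -1.03). With LSK compound replicate 1 in the fit, 524 genes were called for this difference, and the 8 genes with the largest LSK excess were not among them.

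**Figure D5:**
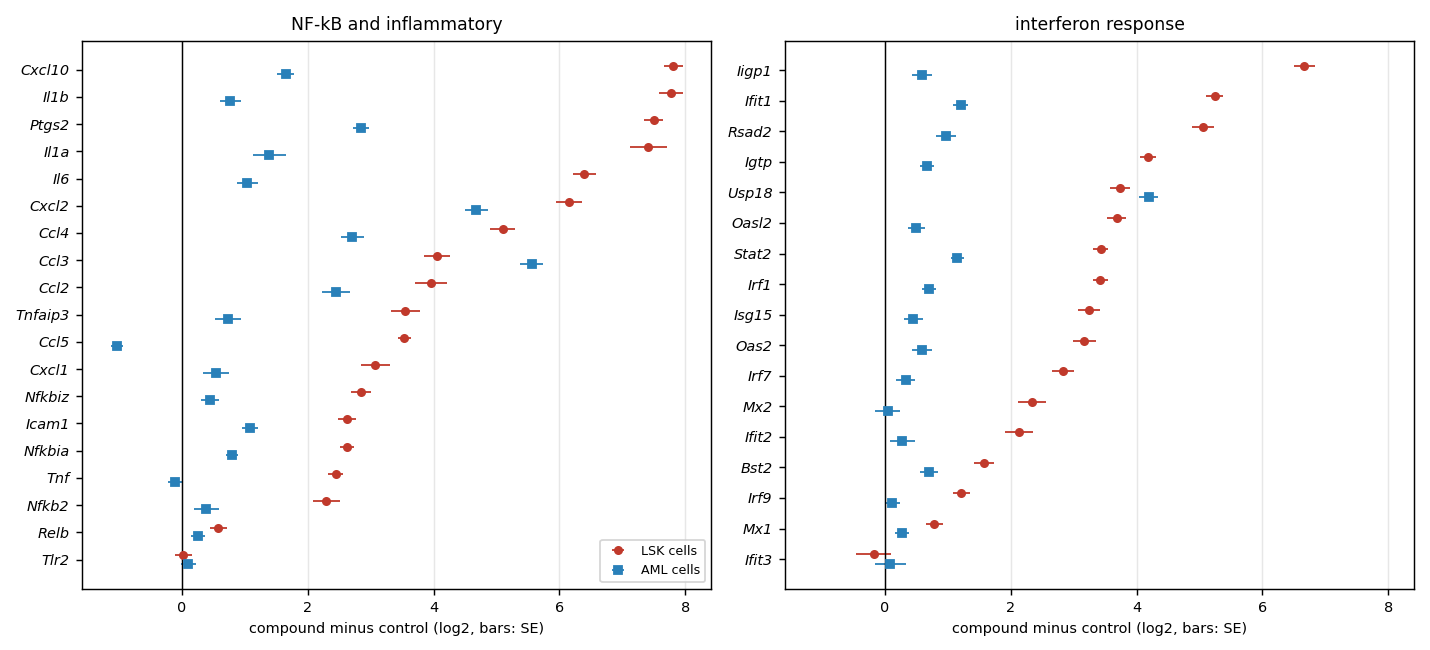
Change with the compounds (log2, bars are SE) for the 19 NF-kB genes (left) and 17 interferon genes (right), in LSK cells (red circles, compound minus control) and below each in AML cells (blue squares). Most genes changed more in LSK cells, for example Il1b at 7.78 against 0.77, while Cxcl2, Ccl3 and Usp18 changed by over 4 log2 in AML cells.

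The 8 genes with the largest difference toward a lower response in LSK cells were of mixed kinds. Clec12a fell in LSK cells (-4.16) and rose in AML cells (0.74), a difference of -4.89 (SE 0.14, limma adjusted p = 4.35e-13). Tgfbi likewise changed by -3.29 in LSK and 1.36 in AML cells. Thbs1, thrombospondin 1, rose in both, by 3.89 in LSK and 7.74 in AML cells, and Vcan, the matrix proteoglycan versican, by 1.12 and 5.07. Clec5a, an activating lectin receptor, fell by 0.68 in LSK cells and rose by 3.25 in AML cells. Chad (-4.58), Chil3 (-4.24) and Myl10 (-4.07) completed the set: they fell in LSK cells, and their AML changes were not called. Chad and Chil3 were near or below the level in AML control cells, at 2.67 ± 0.09 and 2.0 ± 0.11 (SD, n = 3), so a fall there would have met the level.

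Macrophage genes differed the other way from inflammatory ones. In the monocyte and macrophage list 13 of 19 genes had a lower response in LSK and 3 a higher one. Csf1r changed by -0.46 in LSK and 2.79 in AML cells, Lyz2 by -0.12 and 2.44, and Itgam by 0.33 and 3.13, all called for the difference. In the LSD1 and Gfi1 list the difference was called for 5 of 14 genes toward a higher and 5 toward a lower response in LSK. Granule genes had 15 of 18 with a lower response in LSK. Mitosis genes fell in both, 23 of 23 in LSK and 23 of 23 in AML cells (18.5% of all genes), with a stronger fall in LSK for 20 of 23. Ribosome biogenesis genes fell in both with few differences, 2 higher and 1 lower of 23.

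Dox and the compounds were compared within LSK cells by the direct contrast of LSK compound with LSK Dox, since both responses use the same LSK control arrays. A difference was called for 5309 genes (31.4%), 2379 (14.1%) higher and 2930 (17.3%) lower in LSK compound. Against LSK control, 3094 genes (18.3%) were called with Dox, 1500 (8.87%) higher and 1594 (9.43%) lower. The largest differences with higher levels in LSK compound were again in inflammatory genes. Cxcl10 averaged 11.23 ± 0.05 in LSK compound and 2.96 ± 0.06 in LSK Dox cells (difference 8.28, SE 0.15, limma adjusted p = 3.76e-16), and Il1b 11.01 ± 0.08 against 3.53 ± 0.24 (difference 7.48), with SD over 2 and 3 arrays. Il1a (7.48), Ptgs2 (7.24), Ifi205 (6.92, at least 6.81), Tnfrsf11b (6.58), Il6 (6.46, at least 6.12) and Gbp4 (6.37, at least 6.03) followed, the bounds being for genes with LSK Dox values below the level. In the NF-kB list 18 of 19 genes were higher in LSK compound than in LSK Dox and 1 lower, and in the interferon list 16 of 17 and 0.

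Genes lower in LSK compound than in LSK Dox were, for 7 of the 8 largest differences, ones called higher with Dox than in LSK control. Hbb-y, an embryonic globin, averaged 2.40 ± 0.21 in LSK compound and 8.44 ± 0.30 in LSK Dox cells (difference -6.03, at least 5.98 lower), and the aldo-keto reductase Akr1c18 2.58 ± 0.34 against 7.76 ± 0.04 (-5.17). Klrb1f moved in opposite directions, with a change of -3.24 with the compounds and 3.83 with Dox against LSK control, and a difference of -7.07 between them. Ceacam1 (-5.08), Ces2g (-4.95, at least 4.64 lower), S100a4 (-4.88) and Nt5e (-4.35) were also higher with Dox. Against LSK control, S100a4 (-2.71), Ceacam1 (-1.7), Ces2g (-0.94) and Akr1c18 (-0.45) were called lower with the compounds as well. Ces2g lay below the level on both LSK compound arrays, so its fall is at least 0.63. For Akr1c18 the groups overlap, at 2.82 and 2.34 in LSK compound against 2.61, 3.33 and 3.16 in LSK control (limma adjusted p = 0.0469). Hbb-y (0.26) and Nt5e (-0.22) were not called with the compounds. Chad (-4.89) was called lower with the compounds and not called with Dox, at 2.56 ± 0.07 against 7.45 ± 0.08.

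Among the 15 largest rises with the compounds, Cd36 was the one with a like level under Dox, at 8.81 ± 0.12 in LSK compound and 8.94 ± 0.12 in LSK Dox cells (difference -0.13, SE 0.12, limma adjusted p = 0.493). A difference that is not called does not show that the levels are equal. Klf4, one of the factors that Dox induces, averaged 4.90 ± 0.02 in LSK compound and 8.21 ± 0.08 in LSK Dox cells. Mitosis genes were lower in LSK compound than in LSK Dox for 23 of 23, and 1 of 23 was called lower with Dox against LSK control (9.43% of all genes). Ribosome biogenesis genes fell with Dox in 19 of 23, and 2 were higher and 9 lower in LSK compound than in LSK Dox.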

How the data were processed

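Total RNA of 6 groups of 3 samples was labelled with the GeneChip WT kits and hybridised to arrays, per the labels' protocols. The deposited values are log2 expression per probe set after RMA by the authors, per the submitters' processing notes, which give no version. Of 41345 probe sets, 23521 carry 1 gene and 1814 several in the platform annotation, and 16010 were unnamed here. The brightest probe set stood for each of 22180 genes. Fits used limma 3.58.1 in R 4.3.3, with a mean for each group over 17 arrays (all but LSK compound replicate 1), contrasts and eBayes, Benjamini-Hochberg adjustment over 16912 genes and a threshold of 0.05. The method was tested on simulated data. The number of arrays limits the precision.

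Gene members and lists were chosen with earlier results of these data known. Named are the compounds' targets, the reprogramming and sex-linked genes, the 15 largest rises and 15 largest falls without overlap, the 8 largest differences each way in the other comparisons, and up to 6 members of a list by p. Predicted and small RNA genes were left out of the rankings. Further list members, and all exceptions, were named after their values were seen. Promoters are RefSeq's (GRCm38.p6), and the file has 27025 genes with one.

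Replicate numbers did not pair the samples: deviations of same-numbered samples correlated at -0.115 to 0.101. Alternatives changed the arrays kept, weights, block, normalization, filter, floor, probe sets, variance prior and sex-linked genes, and left out each array.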

Additional observations from a re-analysis of the deposited data

Results flagged for a closer look

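The response to the compounds differed between LSK and AML cells for 2809 of 16912 genes in limma's test of the difference itself. The 16 genes named for it follow, with the log2 change in LSK cells minus that in AML cells. The LSK compound arrays carried both Xist and Y-linked transcripts, so there the source of the cells and the treatment cannot be told apart.

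Higher responses in LSK cells were seen for the interleukins Il1b (7.007) and Il1a (6.025), the chemokines Cxcl9 (6.304) and Cxcl10 (6.164), the interferon-inducible Ifi205 (6.249) and Iigp1 (6.077), the decoy receptor Tnfrsf11b (6.857) and the iron hormone Hamp (6.224). With values below the level raised to it, the difference is 5.43 for Hamp and 6.21 for Cxcl9, so the place of Hamp among the 8 largest is not settled. In all 8, both LSK compound arrays lay above every LSK control array.

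Lower responses in LSK cells were seen for the lectin receptors Clec12a (-4.893) and Clec5a (-3.924), the matrix genes Tgfbi (-4.648), Chad (-4.576), Vcan (-3.949) and Thbs1 (-3.848), the chitinase-like Chil3 (-4.242) and the myosin light chain Myl10 (-4.067). For Clec12a, Tgfbi and Clec5a the 2 cell types changed in opposite directions, each change being called. For Vcan and Thbs1 both rose and the rise was larger in AML cells. For Chad, Chil3 and Myl10 the change in AML cells was not called.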

How the results depend on the processing

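LSK compound replicate 1 had the largest effect on the calls. With it, all 18 arrays gave 2937 calls (28.6% of them higher, against 41.9% of 5611 without it) for LSK compound minus LSK control, 524 (26.1% higher, against 49.6%) for LSK minus AML compound response and 2551 (29.2% higher, against 44.8%) for LSK compound minus LSK Dox. With array quality weights, whose estimation stopped before it converged, these counts were 8650, 4757 and 8563. The cause was not tested, but that array was dim for abundant transcripts. The 8 named genes with the largest LSK excess over AML were no longer called with it (differences of 3.45 to 4.99, limma adjusted p of 0.0526 to 0.461).

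The replicate block, with numbers that do not pair the samples, gave 5430, 2644 and 5122 calls in the same order, and leaving out the X and Y genes 5466, 2729 and 5169. Leaving out each array in turn gave 4317 to 5173, 2134 to 2830 and 4077 to 4847. The other 57 recomputed counts, these among them, stayed within 1.5 times.

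Ranked genes and the reprogramming factors were followed in each fit that tested them. Only Pou5f1 and Sox2, which were not called, changed sign in LSK compound minus LSK control. The compounds' targets were recomputed as list counts only, not gene by gene. Pou5f1 was -0.034 with the replicate block, -0.029 with median centring and -0.049 with quantile normalization, and ran from -0.189 to 0.196 without single arrays. Sox2 ran from -0.016 to 0.174 without single arrays. The cause was not tested. Counts of called list members moved by over 1.5 times in 151 recomputations, 43 of them with LSK compound replicate 1 and 25 with that array and quality weights, and stayed within that in 1597. Signal near the level limits what can be said of Sox2, Pou5f1, Nanog and other dim genes.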

Other observations

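Gene families picked after the values were seen, which share some genes with the lists above, had the following counts without LSK compound replicate 1 in LSK compound against LSK control (13.9% of all genes higher, 19.3% lower). CXC chemokines had 8 of 12 called higher and 0 lower, with Cxcl9 at 8.04 and 8.27 against 2.10, 2.39 and 2.33, Cxcl11 at a change of 4.74 (at least 4.48) and Cxcl16 at 4.71. CC chemokines had 11 of 17 higher and 0 lower, among them Ccl17 (4.87) and Ccl22 (4.8), ligands of the chemokine receptor Ccr4. Guanylate-binding proteins, which attack the vacuoles of intracellular microbes, had 8 of 9 higher, among them Gbp4, described above, and Gbp5 (8.41 and 8.55, against 3.03, 3.20 and 2.79, 5.47). All 8 Gimap genes, GTPases best known in lymphocytes, were higher, with Gimap4 at 7.29 and 7.52 against 2.59, 2.78 and 2.76 (4.70). Toll-like receptors had 7 of 11 higher and 0 lower (Tlr1 3.67), Schlafen genes 5 of 6, Ms4a genes 9 of 13 with 2 lower, including Ms4a7 (4.09, at least 3.95) against the fall in Ms4a3, and clade B serpins 6 of 9 (Serpinb2 5.88, at least 5.78). C-type lectin receptors were divided, 8 higher and 4 lower of 22: Clec4d (5.26) and Clec4e (4.17), which sense microbial and dead-cell ligands, were higher, while Clec12a was lower.

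Families of chromosome and nuclear proteins moved the other way. Centromere proteins had 16 of 19 lower and 0 higher (median -0.94), SMC chromosome proteins 5 of 6 lower, Mcm proteins 8 of 9 lower and nucleoporins 12 of 17 lower (median -0.61). Clustered histone genes had 15 of 20 lower and 0 higher, with a median of -1.17. Kinesins, of which many act outside mitosis, had 5 of 35 higher and 15 lower with a median of -0.10, and beta tubulins 4 of 8 higher and 1 lower.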
